A study of Mus musculus with 6 samples.

Results

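The expression of 10 immediate early genes, *Fos*, *Fosb*, *Jun*, *Junb*, *Jund*, *Egr1*, *Egr2*, *Ier2*, *Atf3* and *Dusp1*, was examined in murine acute myeloid leukemia (AML) cells with and without retroviral *IRX3*. The genes were chosen by symbol from a list of immediate early genes, and all 10 were found among the 41128 genes of the expression table. RNA sequencing was performed on KIT+Gr1+ leukemia cells from the bone marrow (BM) of 6 C57BL/6 mice, 3 in each of 2 cohorts. *Hoxa9*/MTV leukemias carried retroviral *Hoxa9* and the empty vector MTV, and *Hoxa9*/*IRX3* leukemias carried the same *Hoxa9* retrovirus with a retrovirus holding human *IRX3*. Every mouse in both cohorts therefore carried *Hoxa9*. The leukemias arose from KIT+ BM cells of CD45.1+ female mice, a strain that the paper gives as B6.SJL-*Ptprc* a*Pepc* b/BoyJ. These cells were transduced, drug selected and transplanted into irradiated young adult female CD45.2+ (C57BL/6) recipients together with unfractionated CD45.2+ BM cells. The RNA came from living CD45.1+ cells, and so from the donor, that flow cytometry had separated as KIT+Gr1+ from thawed marrow of mice with leukemia. Each library came from a single animal, mice 1.1, 1.2 and 1.4 in the *Hoxa9*/MTV cohort and mice 3.2, 3.3 and 3.5 in the *Hoxa9*/*IRX3* cohort. No mouse of a cohort has a partner in the other.

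Immediate early genes are transcribed within minutes of a stimulus such as a growth factor, a cytokine or cell stress, from existing signalling proteins and without new protein synthesis. FOS and JUN proteins pair through leucine zippers to form the transcription factor AP-1, and EGR proteins are zinc finger transcription factors. MAP kinases acting on serum response factor and its partners at CArG boxes, and on CREB and ATF proteins at cyclic AMP response elements (CRE), are among the best described inducers of these genes. In the myeloid lineage, AP-1 and EGR proteins are known for their roles in monocyte and macrophage differentiation. Their transcripts are short-lived, and their levels are known to respond to the handling of cells. The sources used here give no handling times for single mice.

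Values are RPKM, reads per kilobase of gene relative to library size, as deposited. The steps between low values show that the RPKM were computed with 7979246 to 9803621 reads per library. The lowest of these lies below the range of filtered reads given in the methods of the study. Changes are given on the scale of log2(RPKM + 0.5), *Hoxa9*/*IRX3* minus *Hoxa9*/MTV, with the standard error (SE) and the Benjamini-Hochberg adjusted p of limma over 9522 protein-coding genes. A gene was called at an adjusted p under 0.05 and a change of at least 2-fold. By that rule 193 genes were lower in *Hoxa9*/*IRX3* cells (2.03%) and 105 were higher (1.10%), and the median change of all tested genes was −0.06. *Irx3* was listed at 0 throughout the *Hoxa9*/MTV cohort, while mice 3.2, 3.3 and 3.5 had 15.1, 0.421 and 0.148 RPKM. These values are those of the mouse gene, whereas the retrovirus held human *IRX3*. The paper reports that *IRX3* was readily found at a high level in marrow cells of *Hoxa9*/*IRX3* leukemias. How much of the introduced gene each mouse expressed cannot be read from the mouse *Irx3* values. *Hoxa9* was at 174 to 363 RPKM in *Hoxa9*/MTV mice and at 154 to 242 RPKM in *Hoxa9*/*IRX3* mice. In the sorted bulk RNA, fewer cells of a type and less RNA per cell cannot be told apart.

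The sequences before the start sites of *Fos*, *Dusp1* and *Egr2* are shown because they hold some of the elements through which inducers of these genes are known to act. They are the 250 bases upstream of a RefSeq start site on GRCm38.p6, written 5′ to 3′ on the strand of the gene. The *Fos* window lies at chr12:85473640-85473889 on the plus strand, the *Dusp1* window at chr17:26508473-26508722 on the minus strand, and the *Egr2* window at chr10:67537619-67537868 on the plus strand, at 1 of several *Egr2* start sites. Capitals mark TGACGTCA (the CRE), TGACGT (its half-site) and TATAAA on either strand, and matches to the CArG box.
Fos: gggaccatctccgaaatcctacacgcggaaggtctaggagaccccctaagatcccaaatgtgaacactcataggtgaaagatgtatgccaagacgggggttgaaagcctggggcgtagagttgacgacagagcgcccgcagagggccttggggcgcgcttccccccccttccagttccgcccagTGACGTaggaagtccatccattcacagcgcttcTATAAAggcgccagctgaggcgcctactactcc
Dusp1: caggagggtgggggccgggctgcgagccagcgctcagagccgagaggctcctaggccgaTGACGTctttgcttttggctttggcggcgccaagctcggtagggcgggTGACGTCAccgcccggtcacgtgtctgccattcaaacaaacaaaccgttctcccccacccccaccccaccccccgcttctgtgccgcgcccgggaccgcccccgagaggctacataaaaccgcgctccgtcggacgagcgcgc
Egr2: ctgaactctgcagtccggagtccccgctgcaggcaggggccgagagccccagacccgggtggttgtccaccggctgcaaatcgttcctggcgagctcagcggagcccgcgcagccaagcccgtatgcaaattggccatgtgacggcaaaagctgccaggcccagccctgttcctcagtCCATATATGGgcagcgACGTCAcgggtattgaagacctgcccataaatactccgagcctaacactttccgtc

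In *Fos*, capitals mark a half-site that began 66 bases before the start site and a TATAAA 33 bases before it. In *Dusp1* they mark a half-site 191 bases and a complete CRE 143 bases before the start site. A complete CRE holds the half-site on both strands. In *Egr2* they mark a CArG box 72 bases and a half-site, read on the minus strand, 56 bases before the start site. Windows of 250 bases before and 50 after a start site were found for 8 of the 10 genes, *Egr1* and *Ier2* being the others. The complete CRE was in 1 of these 8 genes (*Dusp1*) and in 2.03% of the 27025 genes with a window, and the CArG box was in 1 (*Egr2*) against 1.81%. The half-site, added to the search after the windows had been read, was in 4 (*Fos*, *Egr2*, *Atf3* and *Dusp1*) against 8.37%. TATAAA was in 2 (*Fos* and *Junb*) against 15.7%, while the AP-1 site TGACTCA (5.95%) and the EGR site GCGTGGGCG (0.707%) were in 0 of the 8. Elements more than 250 bases upstream of a start site lay outside the search, so a gene without a match may hold the element further away. A match describes these letters only, and no factor was measured at these sites.

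Of these 10 genes, *Fos* alone was called lower in *Hoxa9*/*IRX3* cells, with a mean 5.88-fold below that of *Hoxa9*/MTV cells. All 10 genes had a lower mean in *Hoxa9*/*IRX3* cells, and their median change was −1.16 on the log2 scale. Over all tested genes, 5475 of 9522 had a negative change. *Egr2* and *Atf3* were tested only because mouse 1.4 of the *Hoxa9*/MTV cohort passed the filter, which favours a lower *Hoxa9*/*IRX3* mean. Called lower were 1 of the 10 genes against 2.03% of all tested genes, and called higher were 0 (limma, with 0 higher at an unadjusted p under 0.05 and 0 by limma voom). Every *Hoxa9*/*IRX3* mouse lay below every *Hoxa9*/MTV mouse for 6 of the 10 genes (*Fos*, *Jun*, *Jund*, *Egr1*, *Ier2* and *Dusp1*), against 21.6% of all tested genes. The same 6 genes had an unadjusted limma p under 0.05, against 16.0% of all tested genes in that direction. These counts describe genes chosen with earlier results of these data known.

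**Figure D1:**
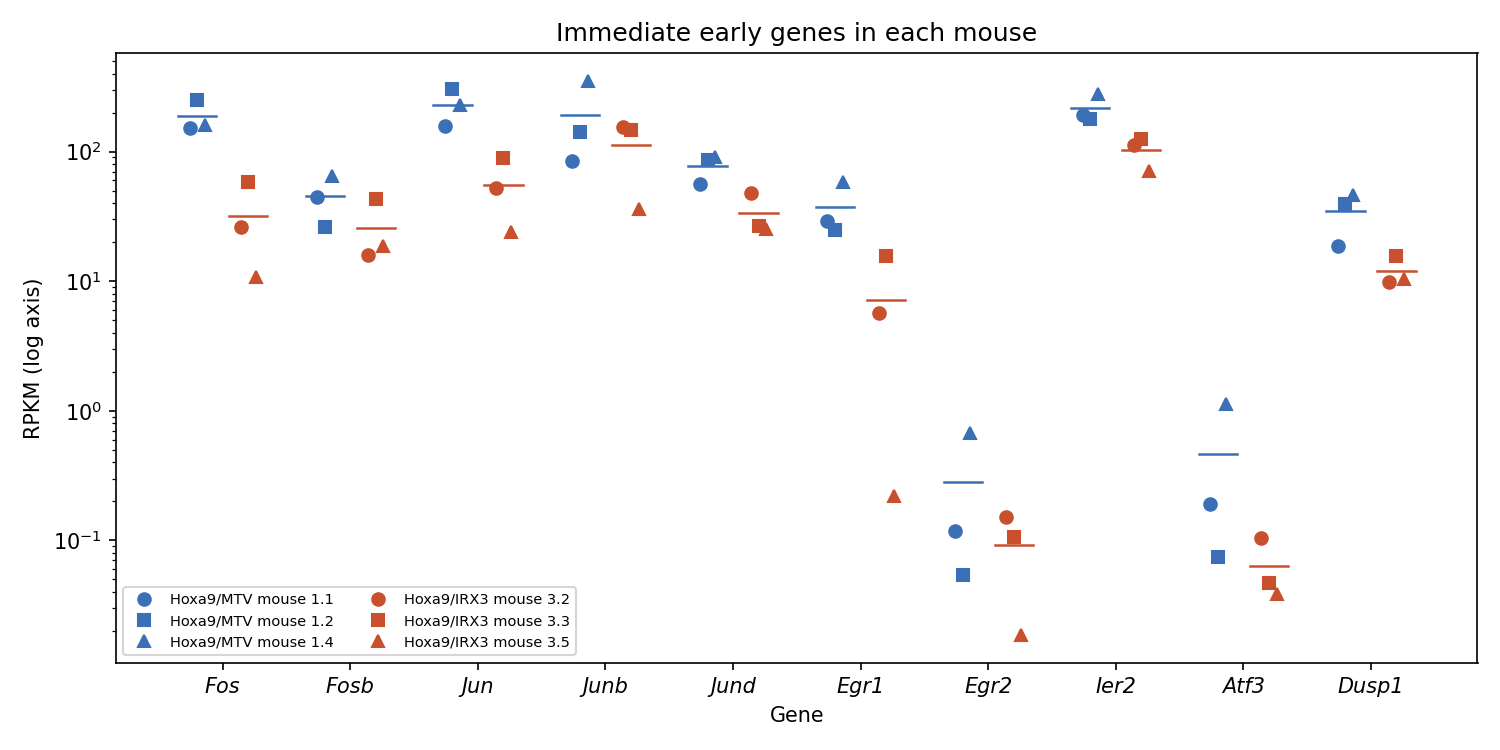
RPKM of the 10 genes on a log axis, with *Hoxa9*/MTV mice in blue, *Hoxa9*/*IRX3* mice in orange and a line at each cohort's mean (n = 3). The cohorts are apart for *Fos*, *Jun*, *Jund*, *Egr1*, *Ier2* and *Dusp1*, and *Egr1* in mouse 3.5 stands far below the other 5 mice.

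*Fos* (ENSMUSG00000021250, chr12:85473890-85477273, plus strand) encodes c-FOS, the AP-1 subunit that needs a JUN partner to bind DNA. *Fos* was at 152, 249 and 161 RPKM in mice 1.1, 1.2 and 1.4 and at 26.1, 58.7 and 10.9 RPKM in mice 3.2, 3.3 and 3.5. The highest *Hoxa9*/*IRX3* mouse lay well below the lowest *Hoxa9*/MTV mouse. The means were 187 ± 53.7 and 31.9 ± 24.5 RPKM (SD, n = 3 each), a log2 change of −2.81 (SE 0.58, 95% interval −4.19 to −1.43, adjusted p = 0.0444 by limma). The call was lost without mouse 1.1 (adjusted p = 0.129), 1.2 (0.169), 1.4 (0.151) or 3.2 (0.0682), and it held without mouse 3.3 (0.0150) or 3.5 (0.0473). With any mouse left out, the log2 change lay between −3.40 and −2.21.

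*Fosb* (ENSMUSG00000003545, chr7:19302696-19310051, minus strand) encodes the second FOS subunit of the list. It was at 44.4, 26.4 and 64.3 RPKM in mice 1.1, 1.2 and 1.4 and at 15.8, 42.9 and 18.7 RPKM in mice 3.2, 3.3 and 3.5. Mouse 3.3 lay above mouse 1.2 and close to mouse 1.1, so the cohorts overlapped. The log2 change was −0.84 (SE 0.46, 95% interval −1.94 to 0.26, adjusted p = 0.307). *Fosb* was high in mouse 1.4 and low in mouse 1.2, where *Fos* was at its highest.

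Per kilobase of exon, *Fos* made up 80.7%, 92.1% and 75.5% of the sum of *Fos* and *Fosb* in mice 1.1, 1.2 and 1.4 and 66.9%, 62.7% and 41.6% in mice 3.2, 3.3 and 3.5. The share was 82.7% ± 8.47 in *Hoxa9*/MTV and 57.1% ± 13.6 in *Hoxa9*/*IRX3* mice (SD, n = 3 each), and the cohorts did not overlap. The log2 ratio of *Fos* to *Fosb* in RPKM was lower by 1.98 in *Hoxa9*/*IRX3* mice (exact two-sided permutation p = 0.1, which is the smallest that 3 against 3 mice allow, and 0.267 after Benjamini-Hochberg adjustment over the 8 ratios compared). The log2 ratios of *Fos* to *Jun* and of *Fos* to *Junb* were also lower in every *Hoxa9*/*IRX3* mouse, with differences of −0.63 and −2.06 and the same exact p of 0.1. The other 5 ratios, *Jun* to *Junb*, *Jun* to *Jund*, *Junb* to *Jund*, *Egr1* to *Fos* and *Dusp1* to *Fos*, overlapped between the cohorts, with exact p from 0.2 to 0.7.

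*Jun* (ENSMUSG00000052684, chr4:95049034-95052222, minus strand) encodes c-JUN, which binds DNA as a homodimer or with a FOS or ATF partner. It was at 157, 305 and 228 RPKM in mice 1.1, 1.2 and 1.4 and at 52.0, 88.7 and 23.9 RPKM in mice 3.2, 3.3 and 3.5. The cohorts did not overlap, and the mice ranked as they did for *Fos*. The means were 230 ± 74.3 and 54.9 ± 32.5 RPKM (SD, n = 3 each), with the *Hoxa9*/MTV mean 4.19-fold the higher. The log2 change was −2.20 (SE 0.49, 95% interval −3.37 to −1.02), and its adjusted p of 0.0549 by limma did not pass. It passed without mouse 3.3 (0.0279) and ranged from 0.0279 to 0.192 over the 6 libraries left out. The antisense gene *Junos* overlaps *Jun* and was at 0.0545 to 0.375 RPKM. Whether the authors counted reads by strand is not given in the sources used here.

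*Junb* (ENSMUSG00000052837, chr8:84974484-84978718, minus strand) encodes a JUN protein that is a weaker activator than c-JUN and can restrain it. Its values were 84.0, 141 and 352 RPKM in mice 1.1, 1.2 and 1.4 and 154, 147 and 36.1 RPKM in mice 3.2, 3.3 and 3.5. Mice 3.2 and 3.3 lay above mice 1.1 and 1.2, and the difference between the means rested on a high mouse 1.4 and a low mouse 3.5. The log2 change of −0.78 (SE 0.72, 95% interval −2.50 to 0.94, adjusted p = 0.536) moved to −0.21 without mouse 1.4 and to −0.09 without mouse 3.5. The gene *Prdx2* overlaps the end of *Junb* in GENCODE M21 and was at 2.03 to 3.10 RPKM. The shortest length that gave whole reads for *Junb* was 1840 bases, less than this extent. Whether the reads counted for *Junb* reached *Prdx2* is not known.

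*Jund* (ENSMUSG00000071076, chr8:70698949-70700616, plus strand) encodes the JUN protein that many resting cells express. It was at 55.8, 85.7 and 91.5 RPKM in mice 1.1, 1.2 and 1.4 and at 47.9, 26.8 and 25.2 RPKM in mice 3.2, 3.3 and 3.5. The cohorts did not overlap, with mouse 3.2 just below mouse 1.1. The log2 change was −1.24 (SE 0.31, 95% interval −1.98 to −0.50), and the adjusted p of 0.0711 did not pass. It passed without mouse 3.2 (0.0264) and reached 0.240 without mouse 1.4. The antisense gene *Gm11175* lies over *Jund* and was at 0.939 to 4.78 RPKM, highest in mouse 3.2.

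Per kilobase of exon, *Jun* made up 52.9%, 57.4% and 33.9% of the sum of *Jun*, *Junb* and *Jund* in mice 1.1, 1.2 and 1.4 and 20.5%, 33.7% and 28.0% in mice 3.2, 3.3 and 3.5. Mice 1.4 and 3.3 nearly met. *Junb* made up 28.3%, 26.4% and 52.5% in the *Hoxa9*/MTV mice and 60.6%, 56.0% and 42.4% in the *Hoxa9*/*IRX3* mice, which overlapped. In mean share, *Jun* led in *Hoxa9*/MTV mice (48.1% ± 12.5) and *Junb* in *Hoxa9*/*IRX3* mice (53.0% ± 9.49, SD, n = 3 each). *Jund* made up 16.2% ± 2.59 and 19.6% ± 9.72. Summed over the 3 genes, the level per kilobase of exon was 296 to 671 in *Hoxa9*/MTV and 85.2 to 263 in *Hoxa9*/*IRX3* mice.

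**Figure D2:**
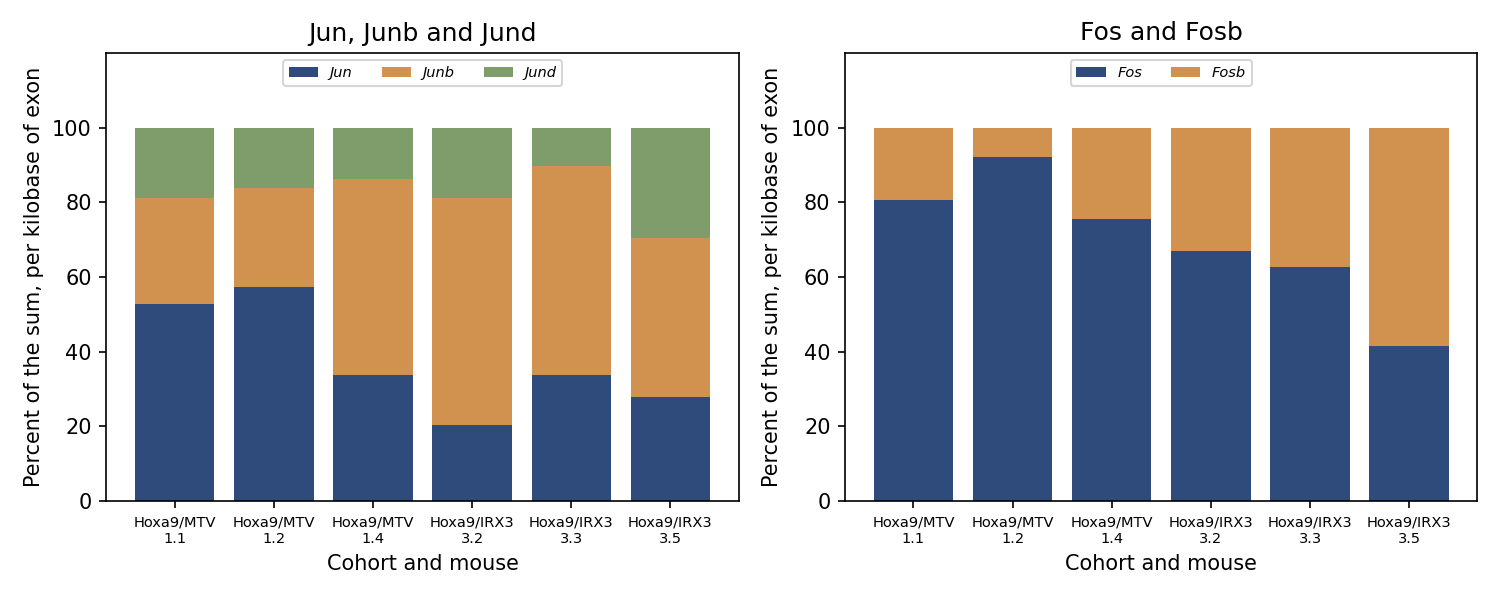
Share of each gene in the sum of *Jun*, *Junb* and *Jund* (left) and of *Fos* and *Fosb* (right), in percent per kilobase of exon, with 1 bar per mouse. *Fos* takes 75.5% or more of its pair in every *Hoxa9*/MTV mouse and 66.9% or less in every *Hoxa9*/*IRX3* mouse.

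*Egr1* (ENSMUSG00000038418, chr18:34859823-34864984, plus strand) encodes a zinc finger factor known for its part in monocytic differentiation. It was at 28.9, 25.0 and 58.5 RPKM in mice 1.1, 1.2 and 1.4 and at 5.66, 15.6 and 0.219 RPKM in mice 3.2, 3.3 and 3.5. The cohorts did not overlap, and the *Hoxa9*/*IRX3* mice spanned 71.5-fold among themselves against 2.34-fold for the *Hoxa9*/MTV mice. The value in mouse 3.5 rested on 9 reads (95% exact Poisson interval 4.12 to 17.1 reads, or 0.0999 to 0.415 RPKM, for counting error only), while the other 5 mice had 259 to 2919 reads. The log2 change was −3.09 (SE 1.08, 95% interval −5.67 to −0.51), the most negative of the 10 genes, and it did not pass (adjusted p = 0.147 by limma). Without mouse 3.5 it was −1.83 (adjusted p = 0.125).

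*Egr2* (ENSMUSG00000037868, chr10:67535475-67542188, plus strand) encodes a related zinc finger factor and was near the limit of detection. It was at 0.118, 0.0538 and 0.678 RPKM in mice 1.1, 1.2 and 1.4 and at 0.151, 0.106 and 0.0187 RPKM in mice 3.2, 3.3 and 3.5. These values rested on 1 to 44 reads, and only mouse 1.4 passed the 0.5 RPKM that let the gene be tested. The cohorts overlapped, and the log2 change was −0.33 (SE 0.31, 95% interval −1.07 to 0.42, adjusted p = 0.550). The *Hoxa9*/MTV mice alone spanned 12.6-fold.

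*Ier2* (ENSMUSG00000053560, chr8:84661331-84662852, minus strand) encodes a small nuclear protein induced with the FOS and JUN genes. It was at 190, 179 and 277 RPKM in mice 1.1, 1.2 and 1.4 and at 112, 125 and 71.3 RPKM in mice 3.2, 3.3 and 3.5. The cohorts did not overlap, and within each cohort *Ier2* spread less than the other genes except *Dusp1* in *Hoxa9*/*IRX3* mice (1.55-fold and 1.76-fold between the lowest and highest mouse). The means were 216 ± 53.7 and 103 ± 28.2 RPKM (SD, n = 3 each). The log2 change was −1.07 (SE 0.27, 95% interval −1.73 to −0.42), and its adjusted p of 0.0741 did not pass.

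*Atf3* (ENSMUSG00000026628, chr1:191170296-191218039, minus strand) encodes a stress-induced leucine zipper protein that can pair with JUN proteins. It was at 0.191, 0.0738 and 1.13 RPKM in mice 1.1, 1.2 and 1.4 and at 0.104, 0.0469 and 0.0384 RPKM in mice 3.2, 3.3 and 3.5. Only mouse 1.4 stood above 0.5 RPKM. By the shortest length that gave whole reads, it had 71 reads and the other mice 2 to 11, and a longer length would mean more. The cohorts overlapped, and the log2 change was −0.62 (SE 0.39, 95% interval −1.55 to 0.31, adjusted p = 0.367).

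*Dusp1* (ENSMUSG00000024190, chromosome 17, minus strand) encodes a phosphatase that inactivates MAP kinases and so limits the signal that induces it. It was at 18.8, 39.6 and 46.0 RPKM in mice 1.1, 1.2 and 1.4 and at 9.82, 15.7 and 10.3 RPKM in mice 3.2, 3.3 and 3.5. The cohorts did not overlap, with mouse 1.1 a little above mouse 3.3. The means were 34.8 ± 14.2 and 11.9 ± 3.26 RPKM (SD, n = 3 each). The log2 change was −1.44 (SE 0.36, 95% interval −2.31 to −0.57), and its adjusted p of 0.0731 did not pass. GENCODE M21 places the gene at chr17:26505590-26562128, but the shortest length that gave whole reads was 2930 bases.

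**Figure D3:**
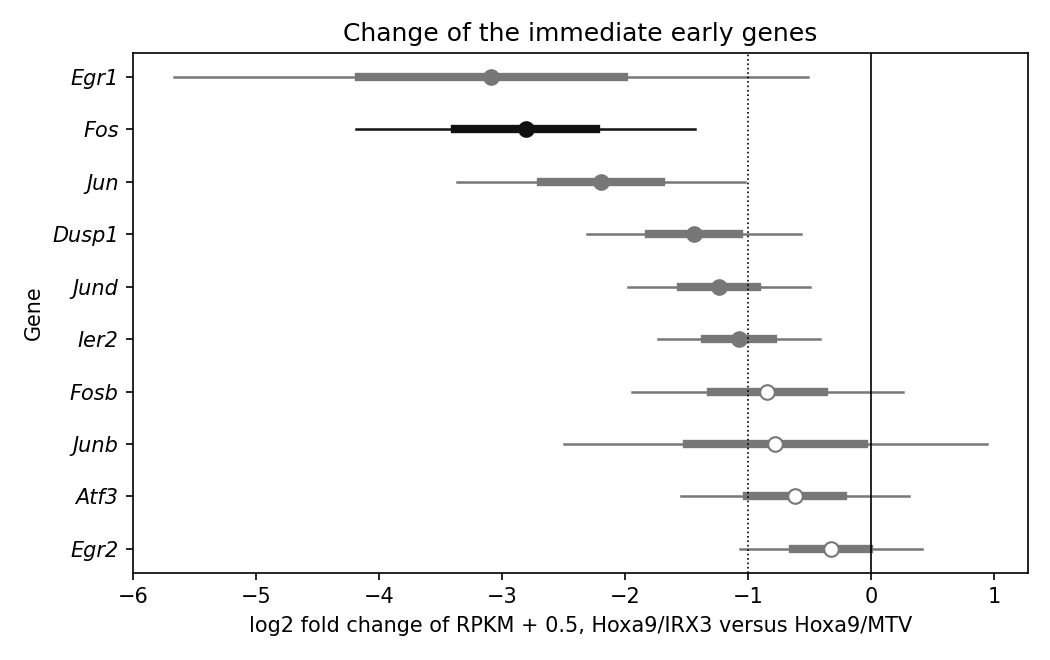
Change of each gene on the log2(RPKM + 0.5) scale, with thick bars for ± 1 SE and thin bars for the 95% interval (3 mice per cohort). Filled points mark the 6 genes whose cohorts did not overlap, black marks the called gene, *Fos*, and a dotted line marks 2-fold lower; the intervals of *Fosb*, *Junb*, *Atf3* and *Egr2* include 0.

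Levels were compared between genes per kilobase of exon, since the deposited values divide by the whole gene. For *Dusp1* and *Junb* the length divided by was shorter than the exon length and was used, so their values are the deposited ones. Any introns within that length would understate their level beside the other genes. The *Atf3* level rests on the shortest length that gave whole reads, so it may be too low. In *Hoxa9*/MTV mice the order of the mean levels was *Fos* (270 ± 77.3), *Jun* (230 ± 74.3), *Ier2* (216 ± 53.7), *Junb* (192 ± 141), *Jund* (77.6 ± 19.1), *Fosb* (52.9 ± 22.3), *Egr1* (43.1 ± 21.1) and *Dusp1* (34.8 ± 14.2), with *Atf3* and *Egr2* at 1.40 and 0.559 (SD, n = 3). The ranges of 1 SD of neighbours met from *Fos* down to *Dusp1*, whereas *Dusp1* stood above *Atf3* beyond its spread. These ranges ignore that the genes were measured in the same mice. *Fos* exceeded *Jun* in every *Hoxa9*/MTV mouse, and *Junb* exceeded *Jund* in every mouse of both cohorts. *Jun* lay below *Ier2* in mice 1.1 and 1.4 but above it in mouse 1.2. In *Hoxa9*/*IRX3* mice the order was *Junb* (112 ± 66.2), *Ier2* (103 ± 28.2), *Jun* (54.9 ± 32.5), *Fos* (45.9 ± 35.2), *Jund* (33.3 ± 12.7), *Fosb* (30.3 ± 17.4), *Dusp1* (11.9 ± 3.26) and *Egr1* (8.25 ± 9.0), and *Atf3* and *Egr2* were at 0.191 and 0.182. Here too the ranges of neighbours met, down to *Egr1* and *Atf3*. *Fos* thus went from the highest mean level to the fourth. Summed over the 10 genes, the level per kilobase of exon was 810, 1169 and 1374 in mice 1.1, 1.2 and 1.4 and 439, 557 and 205 in mice 3.2, 3.3 and 3.5.

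The mice of each cohort differed from each other in a shared manner. Mouse 1.4 was the highest of the 6 mice for 8 genes, and mouse 1.2 was the highest for *Fos* and *Jun*. Mouse 3.5 was the lowest of the 6 for 8 genes, and mouse 3.2 was the lowest for *Fosb* and *Dusp1*. Mouse 3.3 was the highest of the *Hoxa9*/*IRX3* mice for 6 genes and mouse 3.2 for 4. Deviations from the cohort means on the log2 scale correlated with a Pearson r above 0 in 42 of the 45 pairs of genes, over 6 mice that share their libraries, with a median r of 0.50 and a range of −0.33 to 0.98. *Fos* followed *Jun* (r = 0.97), *Junb* followed *Ier2* (r = 0.94) and *Egr2* followed *Atf3* (r = 0.98, both with few reads). Among 2530 other tested genes that averaged 5 RPKM or more, the 5 whose deviations were most like the mean deviation of the 10 genes were *Zfp628*, *Egln2*, *Ccdc85b*, *Kat2a* and *Nubp2* (r from 0.98 to 0.99). Of these 2530 genes 3.52% had an r over 0.9, and the median r was 0.19.

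Among 84 further genes of the pathway in 8 lists, 69 were tested, of which 2 were called lower and 1 higher, against 2.03% and 1.10% of all tested genes. An unadjusted p under 0.05 was found for 13 in the lower direction and 4 in the higher, against 16.0% and 8.34% of all tested genes. Cohorts were apart for 16 and 5, against 21.6% and 12.2%. By limma voom on recovered reads, 1 was called lower (*Mef2d*) and 1 higher (*Hsph1*). Upstream of the immediate early genes, 0 of 15 MAP kinase cascade genes were called by limma, with 2 lower and 1 higher at an unadjusted p under 0.05 and a median change of −0.11. The largest changes there in genes of at least 1 RPKM were those of *Map3k1* (−0.74, SE 0.32, adjusted p = 0.224) and *Braf* (0.52, SE 0.13, adjusted p = 0.0715), both kinases of the cascade. Among 8 tested genes for serum response factor, its partners and the MEF2 proteins, with a median of −0.12, *Mef2d* of the MEF2 group was called.

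*Mef2d*, a MADS box factor that acts on the promoters of *Jun* and *Nr4a1* in other cells, was at 14.0, 13.4 and 12.3 RPKM in mice 1.1, 1.2 and 1.4 and at 5.32, 6.13 and 5.27 RPKM in mice 3.2, 3.3 and 3.5. The mice of each cohort lay close together, and *Mef2d* fell by 1.17 in log2 terms (SE 0.13; limma adjusted p = 0.00813). The call was lost without mouse 1.1 (adjusted p = 0.0529) or 1.2 (0.0564). *Srf*, which encodes serum response factor and was named after its values were seen, was at 15.8 to 17.6 RPKM in *Hoxa9*/MTV and 15.6 to 17.3 RPKM in *Hoxa9*/*IRX3* mice (log2 change 0.02, SE 0.13). *Elk4*, which encodes a partner of serum response factor, had a log2 change of −0.25 (SE 0.12, adjusted p = 0.245).

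Of 15 other immediate early genes tested, with a median change of −0.46, 10 had a negative change, against 5475 of all 9522 tested genes. Among these 10, *Nr4a1*, *Ier5l*, *Plk2* and *Plk3* passed the filter through *Hoxa9*/MTV mice alone, which favours a negative change. Of the 15, 1 was called. At an unadjusted p under 0.05, 5 were lower and 1, *Trib1*, was higher. *Nr4a1*, which encodes the orphan nuclear receptor NUR77, was at 0.768, 1.48 and 2.07 RPKM in mice 1.1, 1.2 and 1.4. Mice 3.2 and 3.3 had 0.256 and 0.270 RPKM, and mouse 3.5 was listed at 0, so only *Hoxa9*/MTV mice passed the filter for this gene. *Nr4a1* fell by 1.49 in log2 terms (SE 0.30; adjusted p = 0.0417). The call was lost with any of the 6 mice left out (adjusted p from 0.0513 to 0.164). *Ier5l*, a relative of *Ier2* and *Ier5*, was at 1.81, 4.80 and 25.0 RPKM in mice 1.1, 1.2 and 1.4 and at 0.337, 0.342 and 0 RPKM in mice 3.2, 3.3 and 3.5 (log2 change −3.26, SE 0.82, adjusted p = 0.0716). Its cohorts were apart, but the *Hoxa9*/MTV mice spread widely. *Ppp1r15a*, which encodes the stress-induced phosphatase subunit GADD34, overlapped between the cohorts (log2 change −1.82, SE 0.68, adjusted p = 0.170). *Zfp36*, named after its values were seen, encodes tristetraprolin, which promotes decay of unstable mRNAs, and had a log2 change of −1.40 (SE 0.37, adjusted p = 0.0776). *Trib1*, also named after its values were seen, encodes a pseudokinase and had the opposite sign, with 0.290 to 0.882 RPKM in *Hoxa9*/MTV and 1.11 to 2.43 RPKM in *Hoxa9*/*IRX3* mice (log2 change 1.01, SE 0.31, adjusted p = 0.111).

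Of the 8 other dual-specificity phosphatases in the list, 4 were tested. All 4 had a negative change, with a median of −1.15, and limma called 0 of them (2 lower at an unadjusted p under 0.05). *Dusp3*, a phosphatase outside the list that was named after its values were seen, was called lower (log2 change −1.52, SE 0.31, adjusted p = 0.0435). *Dusp2*, which encodes a nuclear phosphatase of MAP kinases, was at 16.7, 25.6 and 65.5 RPKM in mice 1.1, 1.2 and 1.4 and at 11.8, 2.94 and 2.49 RPKM in mice 3.2, 3.3 and 3.5 (log2 change −2.62, SE 0.68, adjusted p = 0.0775). The cohorts did not overlap. *Dusp6*, which encodes a phosphatase of ERK, overlapped because mouse 3.5 was at 26.8 RPKM (log2 change −1.49, SE 0.64, adjusted p = 0.217). Called were 0 of the 5 other AP-1 family genes tested (0 at an unadjusted p under 0.05), with a median of −0.22, *Jdp2* and *Fosl2* changing by −0.38 (SE 0.29) and −0.34 (SE 0.51). Of 8 ATF and CREB genes 0 were called (1 higher at an unadjusted p under 0.05), with a median of −0.15, and *Atf5* (1.44, SE 0.46, adjusted p = 0.123) and *Atf2* (−0.50, SE 0.26) had the largest changes. Of 4 genes for corepressors of EGR and mRNA decay 0 were called (2 lower at an unadjusted p under 0.05), with a median of −0.50. *Zfp36l2* changed by −0.75 (SE 0.21, adjusted p = 0.0969) and the EGR corepressor gene *Nab1* by 0.07 (SE 0.13). The other EGR corepressor gene, *Nab2*, named after its values were seen, had means of 0.901 and 0.420 RPKM. Its cohorts were apart (log2 change −0.63, SE 0.20, adjusted p = 0.118 by limma). *Zfp36l1* passed the filter through mouse 1.4 alone.

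**Figure D4:**
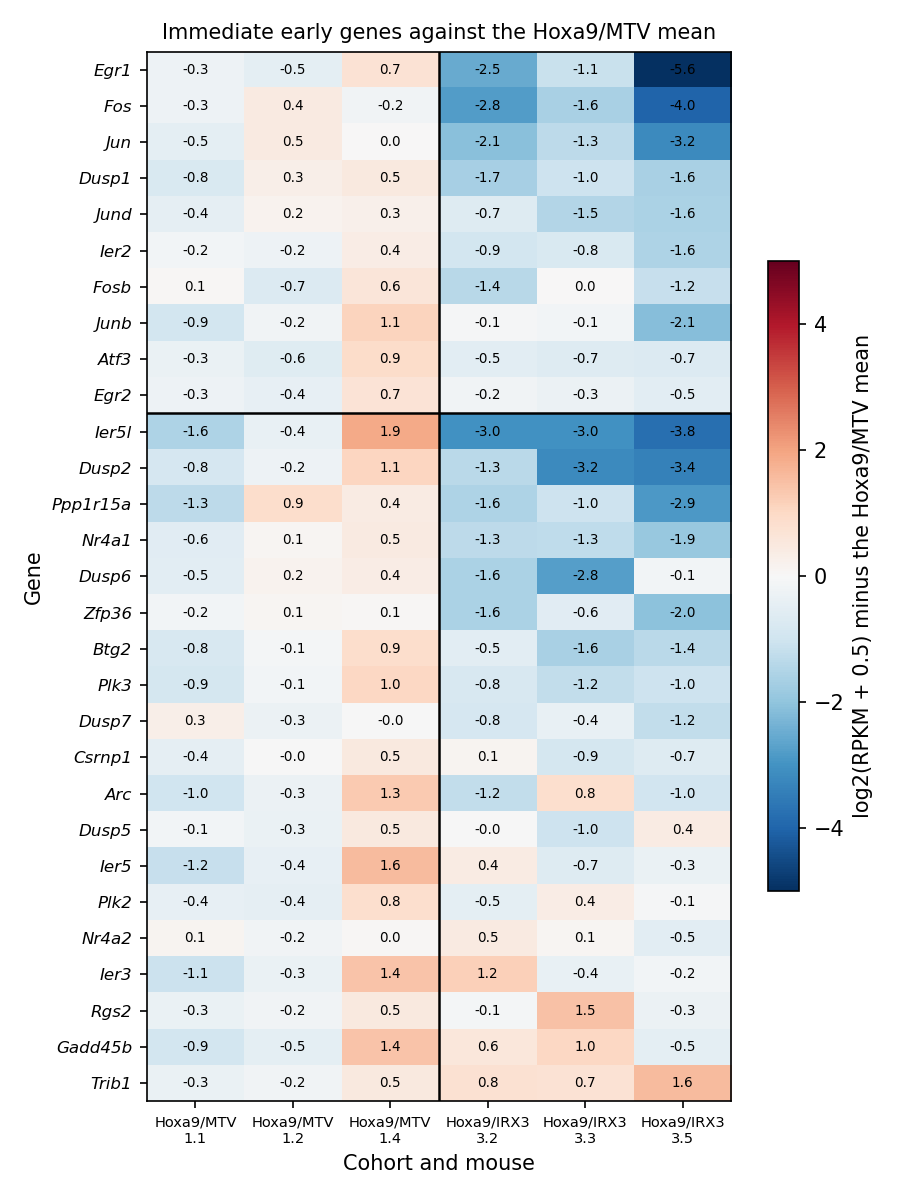
log2(RPKM + 0.5) in each mouse minus the *Hoxa9*/MTV mean, for the 10 genes above the line and for the other tested immediate early genes and dual-specificity phosphatases below it, each ordered by its change. Blue is below and red above the mean of the *Hoxa9*/MTV cohort; mouse 1.4 is red for most genes, and in mouse 3.5 *Egr1*, *Fos* and *Jun* are the deepest blue of the 10.

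Heat shock genes, which respond to cell stress, were read beside the immediate early genes. Of 10 tested, 0 were called lower (0 lower at an unadjusted p under 0.05) and *Hsph1* was called higher (log2 change 1.25, SE 0.17, adjusted p = 0.0140, a call lost without mouse 1.1, 1.2 or 1.4). The median change was −0.25. *Hspa1a* and *Hspa1b*, a pair of near-identical genes whose reads may be split between them, were at 22.4 and 31.1 RPKM in mouse 1.2, and in the other 5 mice at 0.0422 to 1.83 and 0.0447 to 4.35 RPKM. Mouse 1.2 was thus the highest mouse for both of these genes as well as for *Fos* and *Jun*. Their part in the result was not tested. Without mouse 1.2, the log2 changes of *Fos* and *Jun* were −2.59 and −1.96.

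Markers of the sort and of other cells were read in the same mice. *Kit* was at 2.48 to 3.12 RPKM in *Hoxa9*/MTV and 1.63 to 2.70 RPKM in *Hoxa9*/*IRX3* mice, and *Ly6c2*, a target of the Gr1 antibody, was at 413 RPKM or more in every mouse, and both overlapped between the cohorts. *Ly6g*, the other target of that antibody, was called higher, at 0.0532 to 0.145 RPKM in *Hoxa9*/MTV and 0.682 to 1.42 RPKM in *Hoxa9*/*IRX3* mice (log2 change 1.35, SE 0.20, adjusted p = 0.0205). Of the 10 monocyte and macrophage markers, 7 were tested, 3 were called lower by limma (*Ccr2*, *Cd68* and *Ms4a6c*). The summed level of the 10 markers was 139 to 164 RPKM in *Hoxa9*/MTV and 19.7 to 41.6 RPKM in *Hoxa9*/*IRX3* mice. The sum was lowest in mouse 3.5 and highest of its cohort in mouse 3.3, as was *Cd68* (6.72 and 18.3 RPKM). *Ccr2* and *Ms4a6c* had the opposite order, with 6.48 and 1.26 RPKM in mouse 3.5 and 3.69 and 0.199 RPKM in mouse 3.3. *Csf1r* was at 6.43 RPKM in mouse 3.3 against 0.790 and 0.552 RPKM in mice 3.2 and 3.5, and *Fcgr1* was at or near 0 (at most 0.122 RPKM) in every mouse. Of 12 granule and neutrophil markers, 2 were called higher (*Elane* and *Retnlg*). At an unadjusted p under 0.05 by limma, 5 were higher and 0 lower. A negative log2 change was found for 3, *Ltf* (−0.99), *Mmp8* (−0.75) and *Ngp* (−0.13). The sum was 3127 to 4612 RPKM against 6899 to 7548 RPKM, with *Elane* alone going from a mean of 794 to 2964 RPKM. The part of these markers in the levels of the immediate early genes was not tested.

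The markers of most other lineages were near 0. *Ms4a1* and *Pax5* of B cells, *Cd3d* of T cells, *Alas2* of erythroid cells, *Ppbp* of megakaryocytes and *Fcer1a* of mast cells were listed at 0 in every mouse. Of the tested markers of these lineages, *Cd79b* in the B cell list (1 of 1 tested), *Cpa3* and *Gata2* in the mast cell and basophil list (2 of 4 tested) and *Flt3* in the dendritic cell list (1 of 4 tested) were called lower. In the mast cell and basophil list, *Mcpt8* had a log2 change of −1.21 (SE 0.28, adjusted p = 0.0621). *Ms4a2* went the other way, with 0.279 to 0.542 RPKM in *Hoxa9*/MTV and 0.610 to 1.09 RPKM in *Hoxa9*/*IRX3* mice (log2 change 0.66, SE 0.19, adjusted p = 0.103). The sums were 6.26 to 7.13 RPKM in *Hoxa9*/MTV and 0.276 to 2.31 RPKM in *Hoxa9*/*IRX3* mice for the B cell list, 14.5 to 20.3 and 4.51 to 7.31 RPKM for the mast cell and basophil list, and 3.98 to 6.08 and 0.150 to 5.99 RPKM for the dendritic cell list. *Nkg7* of the T and NK cell list was at 482 RPKM in mouse 3.5 and at 14.9 to 100.2 RPKM in the other mice. Summed levels of erythroid markers were 0.0307 to 0.231 RPKM in *Hoxa9*/MTV and 0.268 to 0.303 RPKM in *Hoxa9*/*IRX3* mice, and those of megakaryocyte markers were 3.87 to 5.96 RPKM in *Hoxa9*/MTV and 1.61 to 12.8 RPKM in *Hoxa9*/*IRX3* mice. Those of marrow stroma markers were 1.05 to 1.83 and 0.170 to 0.848 RPKM, without overlap. *Pdgfrb*, the 1 of them tested, made up most of the *Hoxa9*/MTV sums and had a log2 change of −1.25 (SE 0.28, adjusted p = 0.0546). *Col1a1*, *Col1a2*, *Cxcl12* and *Lepr*, at most 0.366 RPKM in any mouse, had higher means in *Hoxa9*/*IRX3* mice. The part of these lineage markers in the result was not tested.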

How the data were processed

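Polyadenylated RNA of sorted KIT+Gr1+ AML cells had been sequenced from 6 mice, 3 per cohort, with cohorts taken from the sample labels. The authors prepared strand-specific polyA libraries, sequenced paired ends, used Bowtie2 2.2.1 for alignment to GRCm38, filtered alignments with SAMtools 0.1.19 and assigned reads to Ensembl genes. Tool names and versions are those of the study's methods and the submitters' processing notes. The authors deposited RPKM per gene and mouse, which are not counts and which divide by the whole gene with its introns.

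The 10 genes and all gene lists were chosen with earlier results of these data known. GENCODE M21 gave type, position and exon length for 40254 of 41128 genes. Reads per gene were recovered from the steps between low values. With a tolerance of 0.01 of a read, 65.0% of tested genes had whole reads in every library, and 98.8% did once the length divided by was searched, as was done for *Fosb*, *Junb*, *Jund*, *Atf3* and *Dusp1*. The search took the shortest length that gave whole reads, so the reads found this way are minimum values. Levels per kilobase of exon use the exon length, or the length divided by where that is shorter or the gene has a single exon. Intervals on reads cover counting error only.

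Protein-coding genes over 0.5 RPKM in at least 1 mouse (9522) were fitted as log2(RPKM + 0.5) by limma's lmFit and trended eBayes (limma 3.58.1, R 4.3.3), two-sided, with Benjamini-Hochberg adjustment over all of them. The script was tested on simulated data. Fold changes on this scale understate the change of low genes. All 10 genes passed the filter, *Egr2* and *Atf3* in mouse 1.4 alone. Named besides them are, of each further list, the called genes and the 2 tested genes of at least 1 RPKM with the largest change, and the 5 genes of at least 5 RPKM most like the 10 in their deviations. Alternatives were other pseudocounts, filters, scalings, weights, gene types, exon length, limma voom on recovered reads, the criterion stated with the study's heat map of genes (an unpaired test of mean RPKM, run here with equal variances, at an unadjusted p under 0.05, and a ratio over 2) and leaving out each mouse. Promoters came from the RefSeq table of GRCm38.p6. Other steps used Python 3.11.15 (numpy 2.4.6, pandas 2.3.3, scipy 1.17.1, matplotlib 3.10.9).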

Additional observations from a re-analysis of the deposited data

How the results depend on the processing

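The direction of the 10 genes was the same under every alternative in which they were tested. Of 176 values 163 also kept their side of the threshold, 7 passed where the reported value did not and 6 no longer passed. *Egr2* and *Atf3* passed the filter through mouse 1.4 alone, and were not tested without that mouse or with a mean of at least 1 RPKM. The 1 gene of the 10 called lower became 0 with no filter on low values or with all gene types, 2 with quantile normalization or exon length, and 4 by the study's criterion (*Fos*, *Jun*, *Jund* and *Ier2*). *Fos* had an adjusted p of 0.0892 with no filter and 0.0733 with all gene types, where more genes were tested. It ranged from 0.0341 to 0.0465 under the other alternatives that used all 6 mice and an adjusted p. With each mouse left out the count ranged from 0 to 2. Of the further lists, the 2 genes called lower became 1 with a pseudocount of 0.1, no filter, a mean of at least 1 RPKM, sample weights, all gene types, exon length or voom, and 5 by the study's criterion. They ranged from 0 to 3 with each mouse left out, and the 1 called higher ranged from 0 to 2. Over all genes, 193 called lower became 109 with no filter, 310 with exon length and 449 by the study's criterion, and 105 called higher became 66 with a pseudocount of 1 or no filter, 238 with exon length and 215 by that criterion. With each mouse left out these counts ranged from 37 to 263 and from 24 to 152, and were lowest without a *Hoxa9*/MTV mouse (46, 41 and 37 lower and 30, 25 and 24 higher without mice 1.1, 1.2 and 1.4). The cause was not tested. Median-of-ratios scaling and quantile normalization moved the median change of all genes by 0.07 and 0.09. Values of *Egr2* and *Atf3* in most mice, and of *Egr1* in mouse 3.5, rest on 11 reads or fewer. For *Atf3* this holds by the shortest length that gave whole reads. No paired analysis was possible because the mouse numbers are not shared between the cohorts.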
